A study of Homo sapiens with 2 samples.

Results

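The heat shock chaperones of the cytosol and of the mitochondrial matrix were followed by 10 gene names, which were taken as a list by their known roles and were all found in both gene tables: HSPA1A, HSPA1B, HSPA8, HSP90AA1, HSP90AB1, HSPH1, DNAJB1, HSPB1, HSPD1 and HSPE1. They were read out among 26228 gene names present in both tables, of which 11118 had a mean FPKM of at least 1 and were called expressed. All 10 chaperones were expressed. The cells were PLC, an established line of human liver cancer. They carried either the empty pCDH lentiviral vector (EV, genotype WT in the labels) or the same vector with human PRSS35, a secreted protein of the serine protease family, for overexpression (PRSS35). Both lines were selected with puromycin as stable cells, neither received a treatment, and the labels do not say whether a line was a clone or a pool. There is 1 library for each condition, so no difference has a replicate check, no test or p-value is given, and a difference between the conditions cannot be told apart from one between the cultures. Levels are in FPKM, a fragment count corrected for transcript length and library size, each with the lower and upper bound from Cufflinks in parentheses. These bounds describe how precisely 1 library was read and say nothing of how cultures vary.

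Heat shock proteins hold unfolded or newly made proteins until they fold. HSP70 proteins bind short hydrophobic stretches in a cycle driven by ATP, J-domain proteins such as DNAJB1 bring them their clients and trigger hydrolysis, and nucleotide exchange factors such as HSPH1 release them. HSP90 takes over clients near their folded state, many of them kinases and receptors, the small protein HSPB1 keeps unfolded proteins soluble, and HSPD1 with its lid HSPE1 folds proteins in mitochondria. Under proteotoxic stress the transcription factor HSF1 binds heat shock elements, which are alternating copies of a GAA unit and its inverse TTC, and raises many of these genes, whereas HSPA8 and HSP90AB1 are known as forms made in unstressed cells.

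**Figure D1:**
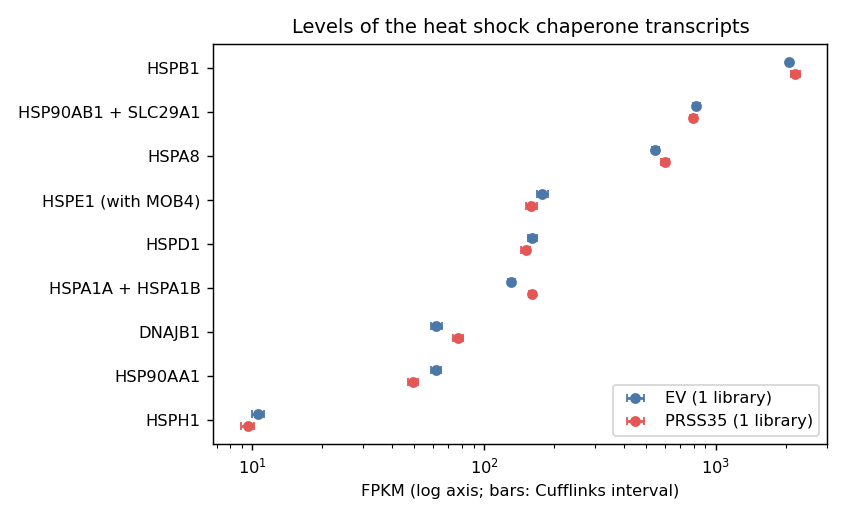
FPKM of each chaperone (log axis) in the EV library (blue) and the PRSS35 library (red), with the Cufflinks interval as a bar and genes that share a locus summed in both libraries. HSPB1 was the most abundant at 2071 and 2201 FPKM and HSPH1 the least abundant at 10.6 and 9.57.

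Heat shock elements are the best known sequence feature of such genes, and matches to them near the starts of 8 of the 10 are shown for that reason. In the 300 bases before the annotated start (GRCh37 with GENCODE v44lift37, positions as in hg19), the pair GAANNTTC was found in 8 of the 10, against 5.82% of 19869 promoters of protein-coding genes. The pair TTCNNGAA was found in 4 of the 10, against 6.69%. Both patterns read the same on either strand. An overlap of the pairs that gives 3 alternating units was found in HSPA8, HSP90AA1, HSPH1 and HSPD1, which makes 4 of the 10 against 0.413% of all promoters. HSP90AB1 and HSPE1 held no whole match in this window. Each start is that of the annotated transcript chosen for the gene, and other starts were not tested. The matches printed below for HSPA8, HSP90AA1, HSPH1, DNAJB1 and HSPD1 lie inside the loci measured in both libraries. Those of HSPA1A and HSPB1 lie outside. The match of HSPA1B lies outside its locus in PRSS35 but inside the EV locus, which is joined with HSPA1A. Capitals mark the matched units in the lines that follow, each 30 bases and read in the direction of its gene.
HSPA1A, chr6:31783203-31783232, plus strand: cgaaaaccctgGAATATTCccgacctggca
HSPA1B, chr6:31795399-31795428, plus strand: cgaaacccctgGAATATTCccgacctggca
HSPA8, chr11:122932878-122932907, minus strand: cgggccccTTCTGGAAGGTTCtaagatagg
HSP90AA1, chr14:102553448-102553477, minus strand: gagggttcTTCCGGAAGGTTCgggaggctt
HSPH1, chr13:31736079-31736108, minus strand: gccgcagaTTCTGGAAAGTTCtgatcagtg
DNAJB1, chr19:14629238-14629267, minus strand: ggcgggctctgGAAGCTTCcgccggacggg
HSPB1, chr7:75931797-75931826, plus strand: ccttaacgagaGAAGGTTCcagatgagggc
HSPD1, chr2:198364786-198364815, minus strand: ggcattTTCTGGAAAGTTCTGGAAccgagc

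HSPD1 and HSPE1 lie head to head on chromosome 2, with 538 bases between their starts, and the 18 matched bases of HSPD1 begin 228 bases from its start. The last pair of this run begins 301 bases from the start of HSPE1, so the run crosses the edge of the 300 bases searched for that gene and was not counted for it. A match is a description of these letters and was not tested as a binding site. The genes differ in build as well. HSPA1A and HSPA1B have 1 exon each, whereas the others have 3 to 18, and the annotated transcripts run from 557 bases for HSPE1 to 5244 for HSPH1.

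The PRSS35 transcript checked the labels, with an FPKM of 0.643 (interval 0.445 to 0.841) in EV and 1836 (1759 to 1912) in PRSS35. All 14 hepatocyte and liver cancer markers had at least 1 FPKM in both libraries. TTR was the lowest of them at 1.56 in EV and 1.61 in PRSS35, and ALB was at 4.05 and 5.21. PTPRC and CD3E of leukocytes, COL3A1 of fibroblasts and HBB of red blood cells were at 0 in both. Of the 4 fibroblast markers only PDGFRB reached 1 FPKM in both, at 1.02 in EV and 1.27 in PRSS35, and COL1A1 was at 0.699 and 0.754. The 3 endothelial markers summed to 0.0373 and 0.0307 FPKM, and the red blood cell marker HBA1 was at 15.1 and 11.8. In the leukocyte list CD68 and LYZ were above 1 FPKM in both, and that list summed to 391.3 FPKM in EV and 381.6 in PRSS35. Read totals are not in the tables. The FPKM that a single fragment adds, inferred from the interval widths at 210 annotated loci, was the same in both libraries (median ratio 1.00). The library size used to compute FPKM was therefore alike, and whether it equals the sequencing depth was not tested. Changes are given as the log2 ratio of PRSS35 to EV after 1 FPKM was added to each level, a scale that understates the change of low genes. Over all expressed genes the median was 0.06, and 60.2% of them had a log2 change above 0.

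HSPA1A and HSPA1B encode the stress-inducible HSP70, and their summed level was higher in the PRSS35 library. As in any bulk sample, fewer cells of a kind and less RNA per cell cannot be told apart. In the EV library they were given as 1 joined locus on chromosome 6 (31783291 to 31798031) of 130.9 FPKM (126.2 to 135.7). In the PRSS35 library they were 2 loci, HSPA1A (31783291 to 31785719) of 90.4 FPKM (88.1 to 92.8) and HSPA1B (31795512 to 31798031) of 70.1 FPKM (68.1 to 72.1). The sum in PRSS35 was therefore 160.5 FPKM against 130.9 in EV, which is 1.23 times as much, a log2 change of 0.29 with a range of 0.20 to 0.38 from the bounds. Taken name by name, the joined EV value stands against each separate PRSS35 value, and the log2 change becomes -0.53 for HSPA1A and -0.89 for HSPA1B, so the sign depends on whether the same genes are summed in both libraries.

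A joined value was set against its sum at all 144 expressed loci joined in 1 library and separate in the other. The joined value over the sum of the separate ones had a median log2 of -0.02, and the middle 50% ran from -0.26 to 0.18. Over the highest separate gene the median was 0.09, and over the lowest it was 4.11. At most of these loci 1 gene thus made up nearly all of the sum. HSPA1A and HSPA1B, at 90.4 and 70.1 FPKM in PRSS35, are closer in level. The values also hold any difference between the libraries, so they do not measure the joining of such a pair. Of the 142 such loci other than those of the chaperones, 53 differed from their sum by as much as the HSPA1A and HSPA1B pair or more (37.3%). The part of the joining in the difference of 0.29 was not tested.

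The coding sequences of HSPA1A and HSPA1B differ at 4 of 1923 bases (99.8% identity), and the longest stretch without a difference has 1709 bases. The window of 60 coding bases with the most differences, coding bases 1846 to 1905, holds 2 of the 4. It is shown because it is among the few places in the coding part where a read can tell the genes apart, and the capitals mark the bases that differ.
HSPA1A, chr6:31785379-31785438, plus strand: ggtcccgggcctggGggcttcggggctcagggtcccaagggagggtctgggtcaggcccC
HSPA1B, chr6:31797573-31797632, plus strand: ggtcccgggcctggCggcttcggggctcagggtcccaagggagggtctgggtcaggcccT

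Of all stretches of 50 bases in the HSPA1A transcript, 75.1% also occur in another annotated gene, and of those in HSPA1B 73.6% do. In PRSS35 the ratio of HSPA1A to HSPA1B was 1.29 (1.22 to 1.36). How reads that match both genes were divided between them is not given in the sources used here. The range leaves out any error from that division. If each such read was counted once in all, the summed value does not depend on it. Shares for the other chaperones were 48.2% for HSPE1, 27.1% for HSPD1, 19.7% for HSP90AB1, 19.1% for HSP90AA1, 16.8% for HSPA8, 13.5% for HSPB1, 2.60% for DNAJB1 and 0% for HSPH1, and most of the partners with the largest shares are pseudogenes, such as HSPD1P1 for HSPD1, while that of HSPE1 is its readthrough with MOB4.

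DNAJB1, the J-domain partner of HSP70 and itself a heat shock gene, had the highest log2 change of the chaperones. Its locus on chromosome 19 (14625576 to 14629371) had 62.2 FPKM (59.0 to 65.4) in EV and 77.0 (73.1 to 80.8) in PRSS35, which is 1.24 times as much, a log2 change of 0.30 (0.16 to 0.45). It was the only one of the 10 whose locus kept its annotated form in both libraries. The ratio of DNAJB1 to the sum of HSPA1A and HSPA1B was 0.475 (0.435 to 0.519) in EV and 0.479 (0.444 to 0.517) in PRSS35. These values are nearly the same, but the pair is a joined locus in EV and a sum of separate loci in PRSS35. The ranges leave out any effect of the joining, which was not tested. Of all expressed genes, 83.8% had a lower log2 change than DNAJB1 and 83.0% a lower one than the summed pair.

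HSPA8, the constitutive HSP70 that also uncoats clathrin vesicles, was several times as abundant as the inducible pair and slightly higher in PRSS35. On chromosome 11 (122928200 to 122933043) it had 546.3 FPKM (527.3 to 565.2) in EV and 602.4 (576.8 to 627.9) in PRSS35, a log2 change of 0.14. Its locus was assembled from the reads in EV and annotated in PRSS35. The intervals did not overlap, though 63.4% of expressed genes had a lower log2 change, so its change was near the middle of them. The ratio of HSPA8 to the summed pair was 4.17 (3.89 to 4.48) in EV and 3.75 (3.50 to 4.02) in PRSS35, and these ranges overlap. Here too the pair is a joined locus in EV alone, and the ranges leave out any effect of the joining.

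HSPH1, an HSP110 that acts as exchange factor for HSP70, was the least abundant of the chaperones. It had 10.6 FPKM (9.91 to 11.2) in EV and 9.57 (8.94 to 10.2) in PRSS35, and these intervals overlap. The ratio of HSPA8 to HSPH1 was 51.7 (46.9 to 57.1) in EV and 62.9 (56.6 to 70.2) in PRSS35, again with overlapping ranges.

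HSP90AA1, the inducible HSP90, had the lowest log2 change of any chaperone compared over the same genes. On chromosome 14 (102547075 to 102606086) it had 62.0 FPKM (59.0 to 65.0) in EV and 49.2 (46.7 to 51.7) in PRSS35. This is 0.794 times the EV level, a log2 change of -0.33 (-0.47 to -0.19), and the intervals did not overlap. Only 9.34% of expressed genes had a lower log2 change. Scaled to the total FPKM of all loci in each library, the log2 change of HSP90AA1 was 0.37. This scaling put the median of expressed genes at 0.68 in place of 0.06. The total over all loci, unnamed ones included, was 2469030 FPKM in EV and 1508529 in PRSS35. Over named loci it was 856880 and 831520, and scaling to that total gave -0.28 for HSP90AA1. Relative to the median gene HSP90AA1 was at -0.39 as deposited and at -0.30 when scaled to all loci.

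HSP90AB1, the constitutive HSP90 on chromosome 6, was the second most abundant chaperone, and its direction rests on how a neighbor is counted. It had 722.6 FPKM (695.6 to 749.7) in EV (44213903 to 44221625). In PRSS35 it was joined with SLC29A1, a nucleoside transporter, on a locus of 797.8 FPKM (769.4 to 826.3) from 44187242 to 44221625. SLC29A1 alone had 101.4 FPKM (97.4 to 105.4) in EV, so the same genes summed to 824.1 there against 797.8 in PRSS35. The log2 change was 0.14 by name and -0.05 (-0.15 to 0.06) for the sum, and the summed intervals overlap. Of the other joined loci, 84.5% differed from their sum by as much or more. HSP90AB1 exceeded HSP90AA1 by 11.7 times (10.7 to 12.7) in EV. With SLC29A1 counted in both libraries, this ratio was 13.3 (12.2 to 14.5) in EV and 16.2 (14.9 to 17.7) in PRSS35, and these ranges do not overlap. They leave out any effect of the joining, which was present in PRSS35 alone.

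**Figure D2:**
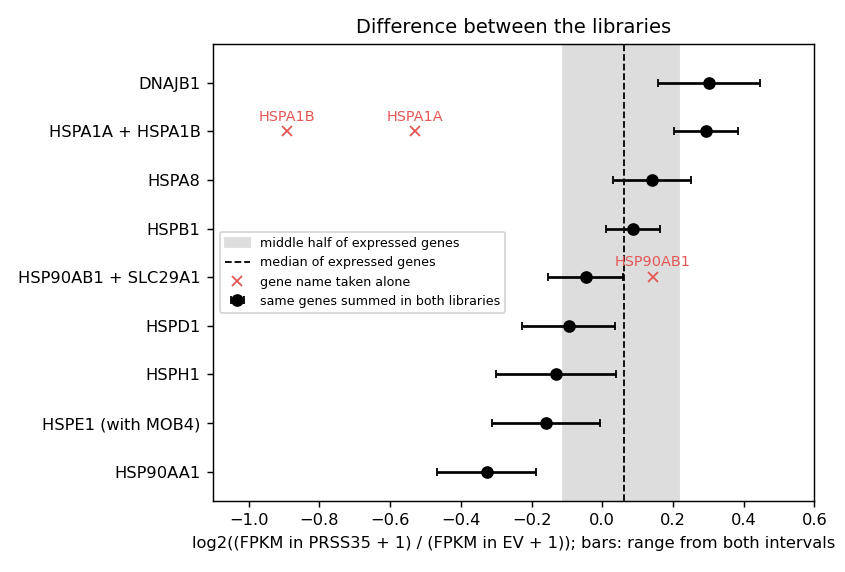
Log2 change of each chaperone between PRSS35 and EV (pseudocount 1 FPKM), with the range from both intervals as a bar, the median of expressed genes (0.06) as a dashed line and the middle 50% of them in grey. Black points sum the same genes in both libraries, and red crosses show the values by name, which fall on the other side of 0 for HSPA1A, HSPA1B and HSP90AB1.

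HSPB1, the small heat shock protein also called HSP27, ranked 75 by FPKM among all gene names in either library. On chromosome 7 (75931875 to 75933614) it had 2071 FPKM (2050 to 2092) in EV and 2201 (2107 to 2294) in PRSS35, a log2 change of 0.09 that 54.4% of expressed genes stayed below. The intervals did not overlap. The interval reached 1.00% above the value in EV, where the locus was annotated, and 4.24% in PRSS35, where it was assembled from the reads. What made these widths differ was not tested.

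HSPD1 and HSPE1, the mitochondrial chaperonin and its lid, were close to each other in level and in their difference between the libraries. HSPD1 (chromosome 2, 198351308 to 198364998) had 161.3 FPKM (153.9 to 168.7) in EV and 151.0 (144.0 to 158.0) in PRSS35, with overlapping intervals and a log2 change of -0.09. HSPE1 was on a locus shared in both libraries with MOB4 and their readthrough (198364721 to 198418423), so its value includes these. That locus had 178.3 FPKM (168.9 to 187.7) in EV and 159.6 (151.0 to 168.2) in PRSS35, a log2 change of -0.16, and the intervals were apart by under 1 FPKM. The ratio of the HSPE1 locus to HSPD1 was 1.11 (1.00 to 1.22) in EV and 1.06 (0.956 to 1.17) in PRSS35. Scaled to the total FPKM of all loci in each library, the log2 change of HSPE1 was 0.55 and that of the median expressed gene 0.68.

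In the order of levels in EV, HSPB1 was followed by HSP90AB1, HSPA8, HSPE1, HSPD1, the summed HSPA1A and HSPA1B, DNAJB1, HSP90AA1 and HSPH1. DNAJB1 and HSP90AA1, at 62.2 and 62.0 FPKM, were the only neighbors in this order whose intervals overlapped, and the bounds of HSPE1 and HSPD1 were apart by under 1 FPKM. In PRSS35 DNAJB1 at 77.0 was above HSP90AA1 at 49.2 with intervals apart, and the summed HSPA1A and HSPA1B at 160.5 overlapped HSPE1 at 159.6 and HSPD1 at 151.0.

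Counted by name, 0 of the 10 chaperones were higher by 2-fold or more, against 2.73% of expressed genes, and 0 were lower, against 2.48%. At 1.5-fold 0 were higher, against 5.23%, and 1 was lower, against 4.27%. That gene was HSPA1B, whose EV value is the joined locus. Of the 10, 4 were higher with intervals apart, against 25.1% of expressed genes, and 4 were lower, against 15.5%. Over the 9 units that count the same genes in both libraries, 0 differed by 1.5-fold. Among them 4 were higher without overlap (HSPA1A with HSPA1B, HSPA8, DNAJB1 and HSPB1) and 2 were lower (HSP90AA1 and the HSPE1 locus with MOB4). Of the 4 higher units, all but DNAJB1 had loci assembled from the reads in 1 library and annotated in the other. What this adds to their differences was not tested. The median log2 change of the 9 units was -0.05, while by name it was -0.11, and that of all expressed genes was 0.06. All 9 units thus differed by less than 1.5-fold, with some above and some below the median gene.

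**Figure D3:**
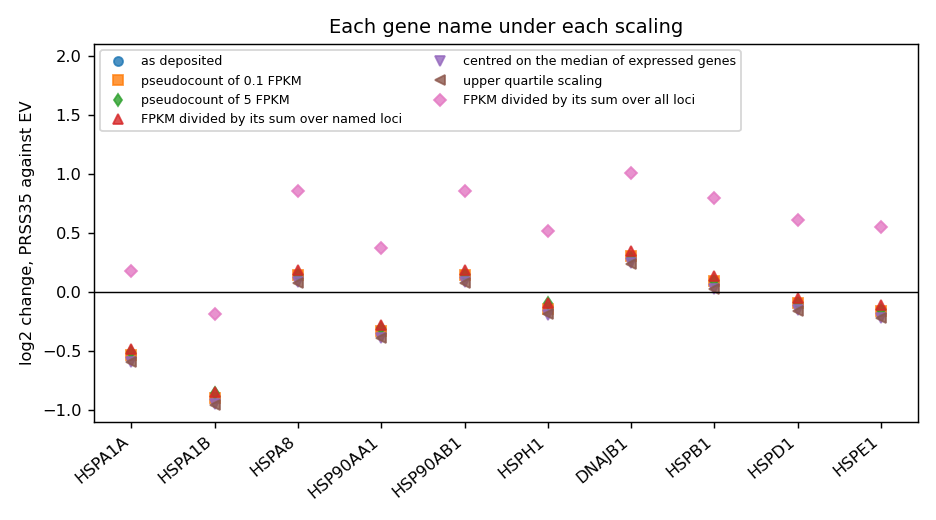
Log2 change of each of the 10 gene names between PRSS35 and EV under 7 scalings or pseudocounts. Scaling to the total FPKM of all loci raised all 10 (DNAJB1 to 1.00), and the other settings kept each gene on its side of 0.

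The other genes of the pathway were read from lists made by role, with 94 genes in all, of which 83 were expressed. Their median log2 change was 0.02, 49 were above 0 and 34 below, and 2 were past 2-fold, 1 in each direction. The higher one, HTRA2, is listed at 0 in EV. Of all expressed genes 60.2% were above 0, with 2.73% higher and 2.48% lower by 2-fold, so these shares were near the background. Among the regulators, HSF1 had 163.6 FPKM (156.0 to 171.1) in EV and 120.7 (114.9 to 126.4) in PRSS35, a log2 change of -0.44 with intervals apart. HSF2, a related factor, was low at 2.16 (1.79 to 2.52) and 2.66 (2.26 to 3.05), and VCP, an ATPase that extracts ubiquitinated proteins, was the most abundant of that list at 243.7 and 272.8 FPKM. HSF4, named here for its value, is listed at 0 in both, on a locus assembled in both that joins it with another name.

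Of the 18 expressed genes in the list of other heat shock factor targets, 14 had a log2 change above 0 and 4 below, against 60.2% above 0 among all expressed genes. Their median of 0.04 was below the 0.06 of all expressed genes, and 0 were past 2-fold. UBB, a polyubiquitin gene, was the most abundant at 1510 and 1512 FPKM. IER5, a regulator of HSF1 and itself a target, had the highest log2 change of 0.42, from 9.91 to 13.6 FPKM with intervals apart, and CACYBP, a cofactor of ubiquitin ligases, the lowest of -0.96, from 44.7 to 22.5. CACYBP is also on the list of HSP90 co-chaperones, where it was the lowest too. Its locus was assembled in EV and annotated in PRSS35. HSPA6, an HSP70 made under severe stress and chosen here after its value was seen, was at 0.237 FPKM (0.115 to 0.359) in EV and 0.338 (0.192 to 0.484) in PRSS35, with overlapping intervals.

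**Figure D4:**
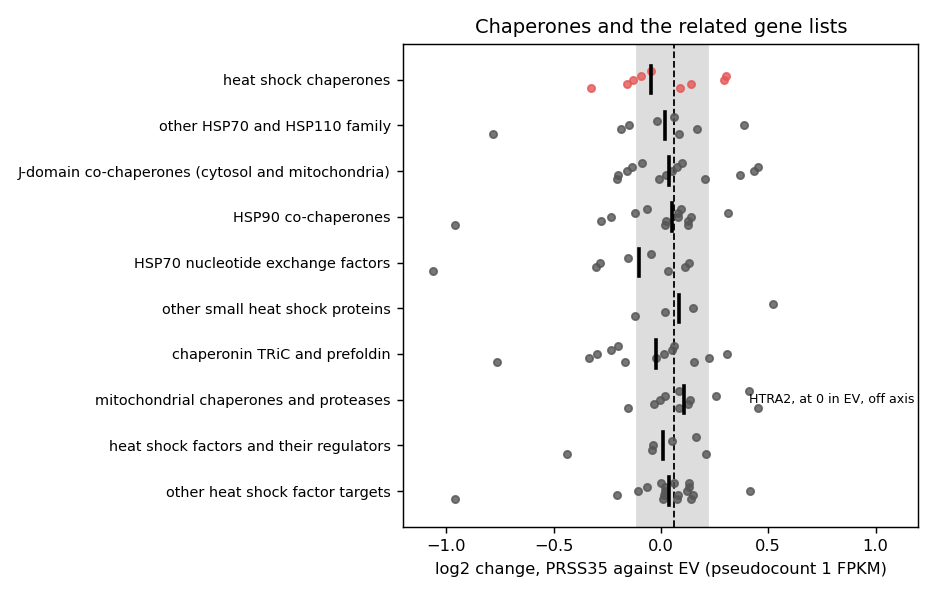
Log2 change of the chaperones (red, the same genes summed in both libraries) and of the expressed genes of each related list (grey points), with each list's median as a black bar, the median of expressed genes (0.06) dashed and the middle 50% shaded. The list medians lie between -0.10 and 0.11, and HTRA2, listed at 0 in EV, is off the axis.

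Among the other HSP70 genes, 4 of 8 expressed members had a log2 change above 0 and 4 below. HSPA9, the mitochondrial HSP70, was the most abundant with 99.4 FPKM (97.4 to 101.4) in EV and 105.5 (103.4 to 107.5) in PRSS35. HSPA2 went from 9.30 to 12.5 FPKM with intervals apart, a log2 change of 0.39, and HSPA12A had 2.31 in EV, where its locus was assembled, and 0.926 in PRSS35. The 14 expressed J-domain genes had a median log2 change of 0.04. Of these DNAJB2 was the most abundant, at 73.0 and 74.4 FPKM. DNAJA3, which serves HSPA9 in mitochondria, had the highest change, from 51.2 (48.9 to 53.5) to 70.4 FPKM (67.4 to 73.4), and DNAJA1, a partner of HSPA8, the lowest, from 62.0 (59.0 to 65.0) to 53.7 (50.8 to 56.6).

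The HSP90 co-chaperones had a median log2 change of 0.05 over 14 genes, 9 of them above 0. STUB1, a ubiquitin ligase that binds HSP70 and HSP90, had 365.2 FPKM in EV and 311.2 in PRSS35. UNC45A, which guides myosin folding, had the highest change of the list at 0.31, from 94.2 to 117.4 FPKM. The exchange factors had a median of -0.10 over 8 genes, and 1 of them, BAG1, was lower by 2-fold, from 20.3 FPKM (17.3 to 23.3) to 9.20 (8.47 to 9.92). HSPBP1, the most abundant of this list, had 210.0 and 170.4 FPKM, and BAG3, a known HSF1 target, 28.6 (27.3 to 29.8) and 31.4 (30.1 to 32.8) with intervals apart.

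In mitochondria, 9 of the 12 genes of chaperones and proteases had a log2 change above 0, against 60.2% of all expressed genes, and their median was 0.11 against 0.06. CLPP, a matrix protease, was the most abundant at 420.0 and 418.6 FPKM, and GRPEL1, the exchange factor of HSPA9, had the lowest change, -0.15. HTRA2, a protease of the intermembrane space, had 26.3 FPKM in PRSS35 and is listed at 0 in EV, so it counts as the other gene past 2-fold and no fold is given. Its locus was assembled in both libraries. In EV the value and both bounds are 0, and whether this means no transcript or no level given was not tested. Of the cytosolic chaperonin TRiC and its helper prefoldin, 6 of 13 expressed genes were above 0 and 7 below. CCT5 had the highest change, from 109.1 to 135.1 FPKM, and PFDN5 the lowest, from 526.3 to 309.9, with the EV locus joined to another gene. PFDN6, also named for its value, is listed at 0 in both libraries, though its locus was assembled in both. Among the expressed genes listed as other small heat shock proteins by name, HSPB11 was the most abundant at 41.4 and 38.1 FPKM. HSPB2 had the highest change, from 18.4 to 26.9 FPKM on a locus that joins 3 names in both libraries.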

How the data were processed

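The authors made 1 RNA-seq library per condition (NEBNext Ultra kit, HiSeq2500), aligned reads with TopHat2 (2.1.0) to hg19 and ran Cufflinks. The submitters' processing notes name Cuffdiff 2.2.1 and also the build dm6. The annotation release is not given in the sources used here. The deposited values are FPKM per locus with lower and upper bounds, from transcripts assembled for each library separately. Starts in the tables count from 0, since 2435 of 4453 annotated loci with a matching end begin 1 base before the GENCODE gene start, and positions here count from 1.

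Joined names were split at commas and each name took the FPKM of its locus. Loci on unplaced or alternate contigs were left out, and loci with the same name were summed. Units counting the same genes in both libraries were added after the data had been seen. No test was run, as there are 2 libraries. The functions were tested on simulated data. The members and lists were chosen with earlier results of these data known. Named were all 10 members and, of each list, the most abundant gene, those with the highest and lowest change and any past 2-fold, besides HSF1, HSF2 and PRSS35. Alternatives were pseudocounts of 0.1 and 5 FPKM, 4 scalings, the highest locus per name, no filter or 5 FPKM, a 1.5-fold threshold, joined loci left out, loci annotated in both libraries, and HSPA1A and HSPA1B summed. Python 3.11.15, numpy 2.4.6, pandas 2.3.3 and matplotlib 3.10.9 were used.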

Additional observations from a re-analysis of the deposited data

Results flagged for a closer look

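Inside the span that joins SLC29A1 and HSP90AB1 in the PRSS35 library, an unnamed assembled locus of 994 bases (chromosome 6, 44206649 to 44207642) had 0.533 FPKM (0.224 to 0.841), and EV has no unnamed locus there. It was flagged only because no EV locus was assembled there, so no EV level was measured at this place. Loci of the EV library were not screened by this rule. The value is also below the mean of 1 FPKM used to call a gene expressed.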

How the results depend on the processing

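Of 79 values of single genes under alternatives, 66 kept their direction and moved by less than the interval. The others came from scaling to the total FPKM of all loci and from counting the same genes in both libraries. Counting the same genes put HSPA1A and HSPA1B at 0.29 and HSP90AB1 at -0.047 (log2). Scaling to the total FPKM moved all 10 names upward. HSPA1A became 0.18, HSP90AA1 0.37, HSPH1 0.52, HSPE1 0.55 and HSPD1 0.61, all of which were below 0 as deposited. HSPA1B stayed below 0 at -0.19. Relative to the median gene, all 10 names were on the same side with that scaling as with FPKM as deposited. With that scaling the median log2 change by name was 0.58 in place of -0.11, 1 member (DNAJB1) was higher by 2-fold, and 10 genes of the related lists were past 2-fold in place of 2. The median was 0.088 with HSPA1A and HSPA1B summed and 0.30 over loci annotated in both libraries, which leaves DNAJB1 alone and 0 listed genes past 2-fold. With a pseudocount of 5 FPKM 1 listed gene was past 2-fold, and at 1.5-fold 5 were, with 1 member lower. In the other settings the median stayed between -0.18 and 0.00. Leaving out joined loci kept 6 members. No paired analysis was possible because EV and PRSS35 are 1 library each, which also allows no leaving out of replicates.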

Other observations

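Unnamed assembled loci within 5 kb of a chaperone locus were few. A locus of 333 bases, 3670 bases downstream of HSPA1B (chromosome 6, 31801702 to 31802034), had 19.6 FPKM (13.5 to 25.7) in EV, and the matching locus in PRSS35 had 8.26 (4.26 to 12.3). A locus of 315 bases next to HSP90AA1 (chromosome 14, 102544888 to 102545202) had 12.9 FPKM (7.38 to 18.4) in EV, and none was assembled within 5 kb in PRSS35. HSPA7, which is close in sequence to HSPA6, was at 0.0072 FPKM in EV and 0.069 in PRSS35, with overlapping intervals. HSPB6, a small heat shock protein, had 1.01 FPKM (0.715 to 1.30) in EV and is listed at 0, with both bounds at 0, in PRSS35. Its locus was assembled in both libraries, and whether the 0 means no transcript or no level given was not tested. HSPA7 and HSPB6 were chosen after their values were seen.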
